A study of Mus musculus with 238 samples.

Results

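Plasma of young animals is given to old animals to learn whether factors in the blood alter the aged brain, and the entorhinal cortex was 1 of 15 brain regions in which RNA was sequenced for that question. The 7 entorhinal libraries of the plasma experiment were taken from the region and treatment in the sample labels, out of 238 libraries in all. They came from male C57BL/6JN mice of 19 months of age that carried no labelled mutation. Of these, 3 received retro-orbital injections of young mouse plasma (YMP, mice 73, 77 and 81) and 4 received PBS, a salt solution without plasma (mice 72, 76, 80 and 84). Each library came from a different mouse, so the replicates are animals. The labels used here give neither the age or number of the plasma donors nor the dose, so YMP is described only as plasma of young mice against buffer, and no group received plasma of old mice.

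The entorhinal cortex joins the neocortex to the hippocampus. Its superficial layers send the perforant path to the hippocampus, its deep layers carry the output back, and it is among the first regions to show tau pathology in Alzheimer's disease. Plasma factors reach the brain across the endothelium of its vessels or signal through it, and microglia, astrocytes and myelin are the cells most often described as changing with age. The mitochondrial genome, which recurs below, encodes the subunits of the respiratory chain that are made inside the mitochondrion, while the remaining subunits come from nuclear genes.

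The tissue was checked against genes of the entorhinal cortex. Levels below are CPM, the counts of a gene per 1 M counts (M, mega) of its library after TMM scaling of the library totals. Reln, the secreted protein of superficial stellate cells, averaged 57.1 ± 26.4 CPM (SD, n = 4) in the PBS libraries, against 21.6 ± 2.58 CPM (SD, n = 4) in motor and 27.4 ± 0.847 CPM (SD, n = 3) in visual cortex of PBS mice. Wfs1 averaged 249.9 ± 45.1 CPM in entorhinal, 69.5 ± 13.7 CPM in motor and 87.3 ± 3.65 CPM in visual cortex, and Calb1 also averaged highest in entorhinal cortex, at 461 ± 216 CPM. These markers go with the label.

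The libraries were not equally deep, and 2 of them stood apart. Totals ran from 2.81 M counts in PBS mouse 76 to 22.1 M in PBS mouse 84, and correlations of log2 CPM between YMP and PBS libraries (0.954 to 0.988) overlapped those among PBS libraries (0.954 to 0.982). PBS mouse 72 lay farthest out on the first principal component, which held 36.3% of the variance. Its 19 myelin genes summed to 5756 CPM against 1609 to 1948 CPM in the other PBS libraries and 1734 to 2652 CPM in YMP. Its 26 immediate early genes summed to 3626 CPM against 1514 to 2085 CPM in the other 6 libraries, and its blood genes to 127 CPM against 15.1 to 51.2 CPM. YMP mouse 81 was high in genes of neighbouring tissue. Fibcd1, a gene of hippocampal CA1 neurons, was at 198 CPM in YMP mouse 81 and 71.6 CPM in YMP mouse 73, against 8.57 CPM in YMP mouse 77 and 5.96 to 32.8 CPM in PBS (log2 change 2.49, and 1.27 without YMP mouse 81). Dcn, decorin of the extracellular matrix, was at 480 CPM in YMP mouse 81, against 20.03 to 131 CPM in the other 6 libraries. In the 8 entorhinal libraries of the diet experiment (females), Dcn ran from 43.6 to 446 CPM and Fibcd1 from 2.79 to 170 CPM. With all 15 entorhinal libraries scaled together, as for those values, YMP mouse 81 was at 486 and 200 CPM. It thus stood apart within the plasma experiment, and high values of both genes also occurred in diet libraries. Where leaving out PBS mouse 72 or YMP mouse 81 moved a list median by over 1.5 times, the value without that mouse is given beside it below, except where all values lie within 0.10 of 0. The larger moves of single genes are given in the same way.

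Across the whole transcriptome, no single gene passed the main test between young plasma and PBS. Of 13687 genes that passed the filter on low counts, edgeR's quasi-likelihood test with Benjamini-Hochberg adjustment called 0 (0% of genes tested) at a threshold of 0.05, with adjusted p-values of 0.91 or more. An unadjusted p under 0.05 was reached by 642 genes, 332 lower in YMP (2.43% of genes tested) and 310 higher (2.26%). Every YMP library lay below every PBS library at 417 genes (3.05%) and above at 501 genes (3.66%). The split of all genes was even, with 50.4% lower on average and a median log2 change (YMP minus PBS) of -0.0018. DESeq2 on the same genes called 5 genes (0.0365%), all lower in YMP: mt-Nd1, mt-Nd5, mt-Nd6, mt-Cytb and Camk2n2. So the verbs used below describe averages and ranges of libraries, and single genes are not called changed unless DESeq2 is named. With 3 mice against 4, an exact permutation test of a single value cannot give a two-sided p below 0.0571.

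The genes with the smallest p among those that separated the groups included genes of astrocytes, synapses and mitochondria on the lower side. Camk2n2, an inhibitor protein of the calcium/calmodulin-dependent kinase II of synapses (GRCm38 chr16:20619215-20621287), was at 29.9, 29.0 and 24.0 CPM in YMP mice 73, 77 and 81. In PBS mice 72, 76, 80 and 84 it was at 47.3, 45.8, 39.5 and 50.03 CPM. Every YMP library was thus below every PBS library, and the log2 change was -0.73 (SE 0.13, edgeR adjusted p 0.91, DESeq2 adjusted p 0.0106). Shank1, a scaffold of the postsynaptic density (chr7:44310253-44360572), was at 158, 187 and 170 CPM in YMP mice 73, 77 and 81, against 233, 257, 208 and 240.0 CPM in the PBS mice in the order above. Its log2 change was -0.45 (SE 0.10, edgeR adjusted p 0.91), again without overlap of the groups.

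S100b, a calcium-binding protein made mainly by astrocytes (chr10:76253853-76261159), was at 54.2, 63.4 and 62.0 CPM in YMP and at 85.6, 92.4, 83.7 and 72.9 CPM in PBS, a log2 change of -0.48 (SE 0.11). Myoc, the secreted protein myocilin, averaged 22.9 ± 3.98 CPM (SD, n = 3) against 40.8 ± 6.32 CPM (SD, n = 4), 43.1% lower. Gjb2, the gap junction protein connexin 26, averaged 19.8 ± 1.53 CPM against 29.5 ± 3.12 CPM, and Slc39a1, a zinc importer, 3.99 ± 0.678 CPM against 9.15 ± 2.94 CPM. The remaining genes of the 12 on the lower side were mt-Nd1, mt-Nd4, mt-Nd5, mt-Nd6, mt-Cytb and mt-Co3, so 6 of the 12 belong to the mitochondrial genome. In each of the 12, the edgeR adjusted p was 0.91.

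On the higher side, the genes had varied functions. Med24, a subunit of the Mediator complex of transcription (chr11:98704591-98729435), was at 100.5, 98.6 and 90.7 CPM in YMP, against 74.1, 62.5, 69.8 and 77.8 CPM in PBS. Flcn, the mTORC1 regulator folliculin (chr11:59791408-59810016), was at 80.9, 80.4 and 84.3 CPM in YMP and at 62.0, 61.7, 66.6 and 66.2 CPM in PBS, a tight separation with a log2 change of 0.35 (SE 0.077). Zfp202, a zinc finger protein, had the largest log2 change of the 12 at 0.93 (SE 0.22) and a low level, 7.76 ± 1.06 CPM (SD, n = 3) against 3.91 ± 0.934 CPM (SD, n = 4). Kirrel2, an adhesion molecule of the immunoglobulin family, followed at 0.77. The other members were Adamts2 (a procollagen-processing protease), Tent4a (a poly(A) polymerase), Crocc (rootletin of the ciliary rootlet), Cd2bp2 (a splicing factor), Nedd9 (a scaffold of focal adhesions), Ccdc117, Ppm1d (a phosphatase of the p53 response) and Dpp9 (a dipeptidyl peptidase). Their log2 changes lay between 0.30 and 0.52, and the edgeR adjusted p was 0.91 for each of the 12.

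**Figure D1:**
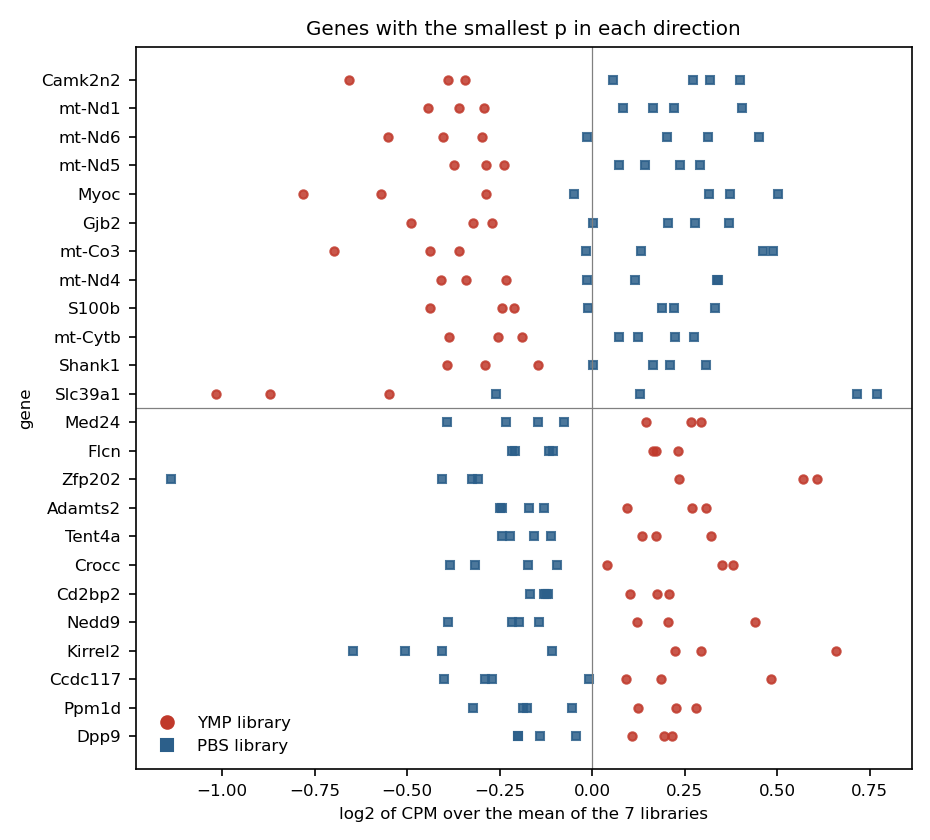
Level of the 24 genes with the smallest p among those whose groups did not overlap, as log2 of CPM over the mean of the 7 libraries, 12 lower in YMP above the line and 12 higher below it. Each point is 1 mouse; the absence of overlap was a condition of the choice, and the widest spread within a group is seen for Slc39a1 and Zfp202.

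Transcripts of the mitochondrial genome averaged lower in the YMP libraries. Of its 13 protein-coding genes, 12 averaged lower in YMP, 11 without overlap of the groups, and the same 12 had an unadjusted p under 0.05, against 2.43% of all genes tested. The median log2 change of the 13 was -0.59, edgeR called 0, and DESeq2 called 4. The share of all counts taken by these genes was 1.61% to 1.75% in the 3 YMP libraries and 2.17% to 2.74% in the 4 PBS libraries. The ranges did not overlap, which is the separation with the smallest p this design allows (exact two-sided 0.0571).

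mt-Nd1, a subunit of complex I (chrM:2751-3707), was at 2303, 2439 and 2557 CPM in YMP mice 73, 77 and 81 and at 4145, 3652, 3316 and 3513 CPM in PBS mice 72, 76, 80 and 84. It was 33.5% lower in YMP, a log2 change of -0.59 (SE 0.11, DESeq2 adjusted p 0.00116, edgeR adjusted p 0.91). The other complex I genes mt-Nd2, mt-Nd3, mt-Nd4, mt-Nd5 and mt-Nd6 had log2 changes from -0.66 to -0.49. mt-Cytb, the cytochrome b of complex III (chrM:14145-15288), averaged 4391 ± 300 CPM (SD, n = 3) against 6000 ± 381 CPM (SD, n = 4), with a log2 change of -0.45. mt-Co1, a catalytic subunit of cytochrome oxidase and the most abundant of the 13, averaged 5478 ± 116 CPM against 7980 ± 1217 CPM, a log2 change of -0.54.

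The difference was thus of similar size in genes that span the whole mitochondrial genome. mt-Nd4l was the exception, with 2.45 to 4.52 CPM in YMP and 2.53 to 4.79 CPM in PBS, a log2 change of 0.09 (0.36 without PBS mouse 72 and 0.31 without YMP mouse 81). mt-Atp6, mt-Atp8, mt-Co2 and mt-Co3 were counted at 18.5 CPM or less on average in PBS, far below mt-Co1. How reads shared with nuclear copies of mitochondrial DNA were treated in counting is not given, and its part in these low counts was not tested. mt-Nd5 and mt-Nd6 overlap at their ends on opposite strands, and the counts carry no strand.

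**Figure D2:**
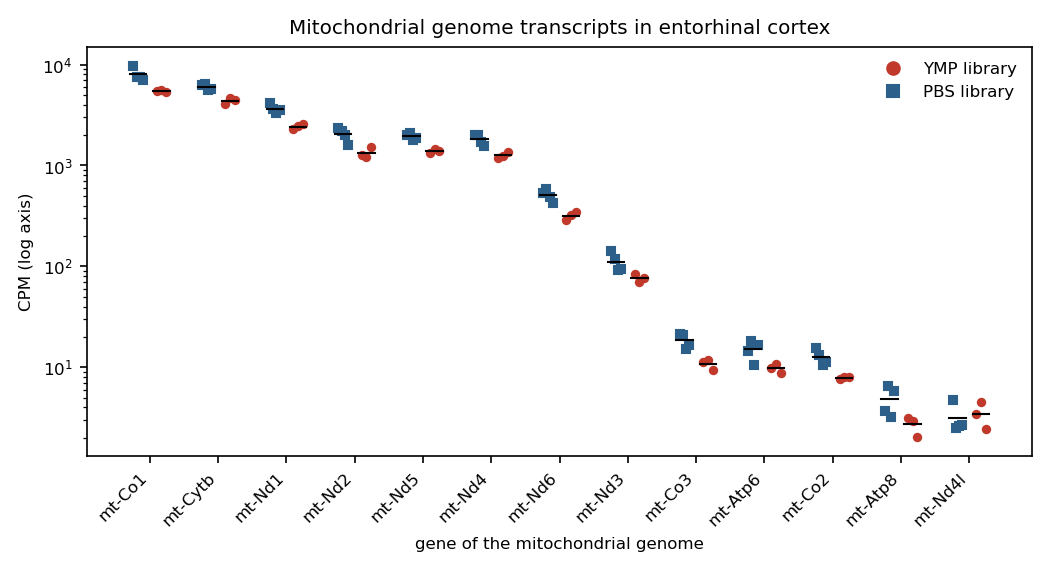
CPM (log axis) of the 13 protein-coding genes of the mitochondrial genome in the 4 PBS and 3 YMP libraries, with a bar at each group mean. YMP libraries lie below all PBS libraries at 11 of the 13 genes; the exceptions are mt-Atp6 and mt-Nd4l.

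Without PBS mouse 72 the median of the 13 genes was -0.53, with 12 still at an unadjusted p under 0.05, and with PBS mouse 72 and YMP mouse 81 both left out it was -0.55, with 10. In the diet experiment, entorhinal libraries of freely fed (AL) females held 1.93% to 2.55% of counts on these genes and those of dietary restricted (aDR) females 1.51% to 1.92%. The YMP values were thus within the span of treated and untreated mice of the other experiment, whose animals differ in sex. Whether fewer mitochondria, less mitochondrial RNA per cell or a different mix of cells is behind a lower share cannot be told apart in bulk tissue.

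The same share was read in the other regions of the plasma experiment. The ranges of YMP and PBS mice also did not overlap in cerebellum, at 1.64% to 2.25% against 2.27% to 2.44%, and they overlapped in the other 13 regions. In hypothalamus the means were level, at 1.87 ± 0.119% (SD, n = 3) in YMP and 1.87 ± 0.193% (SD, n = 3) in PBS, and in visual cortex they were 1.85 ± 0.159% and 1.87 ± 0.0951%. The log2 change of mt-Nd1 outside the entorhinal cortex ran from -0.38 in pons to -0.02 in hypothalamus, against -0.59 in entorhinal cortex.

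**Figure D3:**
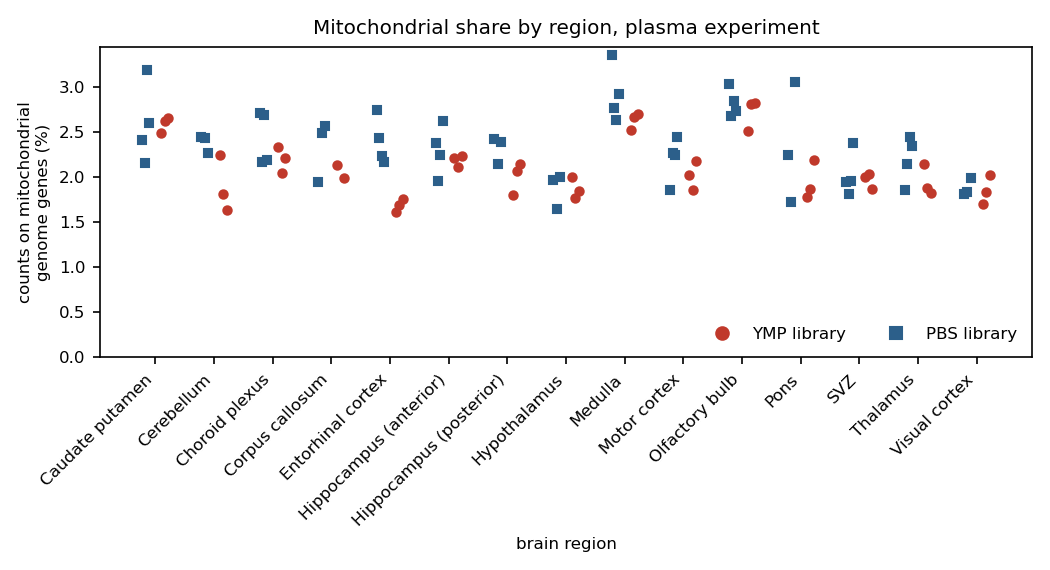
Percent of counts on the 13 mitochondrial genome genes in each library of the plasma experiment, by region; each point is 1 mouse. In entorhinal cortex the 3 YMP libraries (1.61% to 1.75%) lie below the 4 PBS libraries (2.17% to 2.74%), and the groups are also apart in cerebellum.

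Nuclear genes of the ribosome and of the respiratory chain also averaged lower. Of 40 cytosolic ribosomal protein genes, 39 had a negative log2 change, 15 with an unadjusted p under 0.05 and 14 without overlap, against 2.43% and 3.05% of all genes tested, and the median was -0.21. Rplp1, a protein of the ribosomal stalk, was at 155, 154 and 195 CPM in YMP and at 219, 214, 219 and 207 CPM in PBS, a log2 change of -0.35 (SE 0.11). Rps14 (-0.32), Rps18 (-0.33) and Rpl32 (-0.33), proteins of the small and large subunits, also did not overlap, and the single member with a positive value was Rpl3. YMP mouse 81 was the highest of the YMP group for these 4 genes. Ribosomal protein genes have many processed pseudogenes, so reads could be split between copies.

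Of 39 nuclear genes of the respiratory chain, 32 averaged lower, 10 with an unadjusted p under 0.05, against 2.43% of all genes tested. Of the 39, 2 lay below without overlap, a share near the 3.05% of all genes. The median was -0.21, and -0.13 without YMP mouse 77. Cox6a1, a subunit of cytochrome oxidase, was at 243, 252 and 283 CPM in YMP and at 337, 357, 324 and 302 CPM in PBS, a log2 change of -0.34 (SE 0.098). The complex I genes Ndufa1 (-0.45) and Ndufs4 (-0.35), and Ndufa4 of cytochrome oxidase (-0.38), averaged lower with overlapping groups. edgeR called 0 genes of either list.

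Exonic length moved with these differences. Genes were put into 5 equal groups by the summed length of all their annotated exons, which was known for 99.6% of genes tested. A single transcript of a gene can be shorter than that sum, and a trend with transcript length was not tested. In the shortest group (168 to 2581 bases), 173 of the 193 genes with an unadjusted p under 0.05 were lower in YMP, and the median log2 change was -0.09. In the 3 groups of the longest genes the medians were 0.02 to 0.03, and 96 of 137, 77 of 105 and 69 of 97 such genes were higher in YMP. Ribosomal, respiratory chain and mitochondrial genome genes are short, with median exonic lengths of 1901, 2101 and 784 bases against 4569 bases over all genes tested.

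The slope was not the same in all mice of a group. For the shortest genes the median deviation from the gene mean was 0.045, 0.10 and 0.071 in PBS mice 72, 76 and 80 but -0.041 in PBS mouse 84, and it was -0.078, -0.057 and -0.0046 in YMP mice 73, 77 and 81. After the length trend of each library was removed, the median log2 change was -0.13 for ribosomal proteins (36 of 40 lower), -0.08 for the respiratory chain (27 of 39) and -0.40 for the mitochondrial genome (12 of 13). Rplp1 was then at -0.09, Rpl32 at -0.14, Rps14 at -0.28 and Rps18 at -0.29. Their exonic lengths were 499, 963, 2394 and 2451 bases in that order, so the removal acted least on those with the longer sums. Cox6a1 was at -0.11, Ndufa1 at -0.15, Ndufa4 at -0.25 and Ndufs4 at -0.32. Removal of the trend was chosen after seeing the data, and the part of RNA quality in the trend was not tested.

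**Figure D4:**
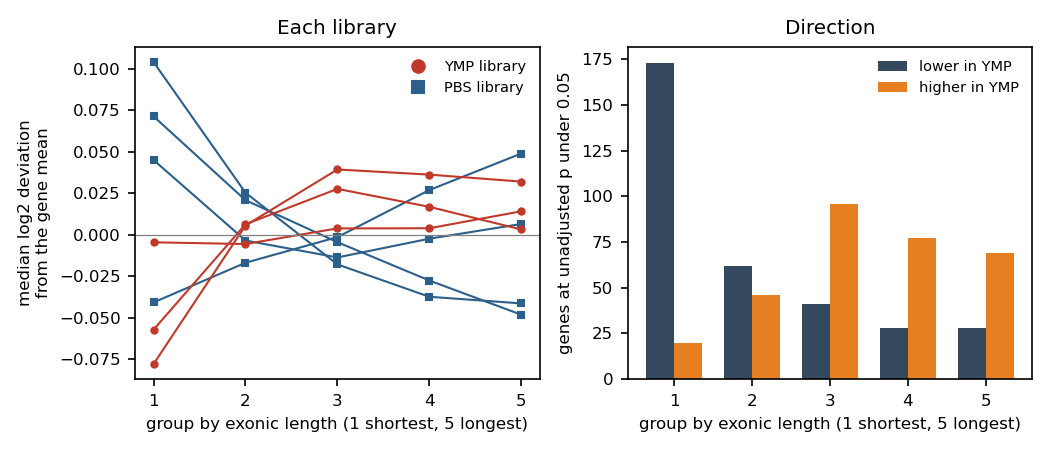
Left: median log2 deviation from the gene mean in each library, by 5 groups of exonic length (1 shortest). Right: number of genes with an unadjusted p under 0.05, lower or higher in YMP, in the same groups; 173 are lower and 20 higher in the shortest group.

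Microglial genes averaged lower in YMP as a group. All 18 microglial genes had a negative log2 change, with a median of -0.28. Of these, 4 had an unadjusted p under 0.05 and 3 lay below without overlap, against 2.43% and 3.05% of all genes tested. Tyrobp, the signalling adaptor of Trem2, was at 11.2, 11.5 and 10.9 CPM in YMP and at 17.4, 18.8, 15.7 and 13.5 CPM in PBS, a log2 change of -0.53 (SE 0.15). Trem2, the lipid-sensing receptor of microglia, was at 7.62, 10.8 and 6.83 CPM against 12.2, 12.3, 14.2 and 11.9 CPM, a log2 change of -0.60 (SE 0.19). Ly86, a partner of a Toll-like receptor relative, had a log2 change of -0.40. The edgeR adjusted p was 0.91 for all 3.

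The summed level of the 18 genes was 686, 866 and 592 CPM in YMP mice 73, 77 and 81 and 744 to 905 CPM in PBS, so YMP mouse 77 lay within the PBS range. Without YMP mouse 81 the median was -0.15 with 14 of 18 lower, and without YMP mouse 77 it was -0.40. Microglial genes are also short, with a median exonic length of 2325 bases, and with the length trend removed their median was -0.19, with all 18 lower. Tyrobp was then at -0.29, while Trem2 was at -0.63 and Ly86 at -0.41. Their exonic lengths were 667, 4946 and 3632 bases in that order. Fewer microglia and less RNA of these genes per cell cannot be told apart here or in the lists that follow.

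The immune lists that overlap with microglia went the same way on average. Of 17 complement and MHC class I genes, 15 were lower, with 2 at an unadjusted p under 0.05, against 2.43% of all genes tested. Their median was -0.29 (-0.19 without PBS mouse 72 and -0.19 with the length trend removed). C1qa, which starts the classical complement cascade, had a log2 change of -0.30 and C1qb -0.37, or -0.12 and -0.19 with the length trend removed. C4b, a complement gene that rises in the aged brain, was at 29.5, 51.0 and 29.0 CPM in YMP and 36.8 to 50.6 CPM in PBS, with overlapping groups (log2 change -0.25, and -0.10 without YMP mouse 81). B2m, the light chain of MHC class I and a factor of old blood, averaged 79.0 ± 7.72 CPM in YMP and 103 ± 25.4 CPM in PBS, and its log2 change was -0.38 (-0.20 without PBS mouse 72). Disease-associated microglial genes were lower for 13 of 17 (median -0.26, and -0.10 without PBS mouse 72). Of the 17, 3 lay below without overlap, against 3.05% of all genes tested, among them Cd63, a tetraspanin of lysosomes (-0.36). Interferon-response genes were lower for 11 of 16 (median -0.21), but the median was 0.08 without PBS mouse 72.

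Astrocytes and vessels showed smaller differences. Astrocyte genes were lower for 9 of 12 (median -0.09, and -0.06 without PBS mouse 72). Slc1a2, the main glutamate transporter, was at 874, 787 and 772 CPM in YMP and at 1189, 934, 949 and 881 CPM in PBS. Reactive astrocyte genes were lower for 13 of 16 (median -0.20, -0.10 without PBS mouse 72 and -0.13 without YMP mouse 81). Gfap, the astrocyte filament protein, was at 227, 404 and 293 CPM in YMP and 289 to 436 CPM in PBS, with overlap. Endothelial and blood-brain barrier genes were lower for 19 of 24 (median -0.19, and -0.11 without PBS mouse 72). Of these, 3 had an unadjusted p under 0.05 and 4 lay below without overlap, against 2.43% and 3.05% of all genes tested. Emcn, the endothelial sialomucin, averaged 3.43 ± 0.472 CPM in YMP and 5.41 ± 0.626 CPM in PBS, a log2 change of -0.69 (SE 0.20). The others without overlap were Egfl7 (-0.26), an angiogenic secreted factor, Itm2a (-0.21) and Ly6c1 (-0.39, and -0.22 without PBS mouse 72).

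Cldn5, the tight junction claudin of brain endothelium, averaged 10.2 ± 0.851 CPM in YMP and 13.5 ± 2.58 CPM in PBS with overlapping groups (-0.40). Vcam1, an adhesion molecule of inflamed vessels, averaged 48.6 ± 9.44 CPM against 45.7 ± 9.27 CPM (log2 change 0.11, and -0.0065 without PBS mouse 72). Pericyte and smooth muscle genes were lower for 4 of 10 (median 0.01). Fibroblast and meningeal genes were lower for 12 of 14 (median -0.22), with Ptgds, the prostaglandin D synthase of the leptomeninges, at 2313 ± 254 CPM in YMP and 3276 ± 661 CPM in PBS and Apod at 109 ± 5.79 CPM and 162 ± 54.1 CPM (log2 change -0.57, and -0.33 without PBS mouse 72). The 2 genes of this list that averaged higher were Dcn (1.89, and 0.59 without YMP mouse 81) and the collagen gene Col3a1 (0.45).

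Myelin genes depended on 1 mouse. Of 19 oligodendrocyte and myelin genes, 18 averaged lower in YMP (median -0.49), but 0 had an unadjusted p under 0.05. Without PBS mouse 72 the median was 0.18 and 4 of 19 were lower. Mbp, myelin basic protein, was at 932, 561 and 635 CPM in YMP, at 2249 CPM in PBS mouse 72 and at 519 to 648 CPM in the other 3 PBS mice. Its log2 change was -0.49 with PBS mouse 72 and 0.28 without. Mog, a surface protein of myelin, was at 46.3 CPM in PBS mouse 72 and 9.39 to 17.5 CPM in the other PBS mice, against 8.10 to 17.7 CPM in YMP (log2 change -0.79, and -0.07 without PBS mouse 72). Oligodendrocyte precursor genes were lower for 6 of 10 (median -0.04, and -0.10 without PBS mouse 72).

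Other tissues that a dissection could include gave these values. Blood genes were lower for 9 of 9 tested (median -1.31, and -0.57 without PBS mouse 72). Choroid plexus genes passed the filter for 4 of 14, Sostdc1 (1.60), Prlr (0.51), Kl (0.49) and Trpm3 (0.14), while Ttr did not pass. All 4 were higher on average (median 0.50, 0.78 without PBS mouse 72 and 0.22 without YMP mouse 81). The summed level of the list was 43.4 to 63.4 CPM in YMP and 32.38 to 60.3 CPM in PBS, with overlap. Ependymal genes passed for 3 of 10 and were all lower (median -0.28, and -0.02 without YMP mouse 81). Hippocampal genes passed for 6 of 10, with 3 lower and a median of 0.37, which was 0.06 without YMP mouse 81. C1ql2, a gene of dentate granule cells, was at 29.7 CPM in YMP mouse 81 and 2.36 to 6.00 CPM in the other 6 libraries, and its log2 change was 1.75 with and 0.17 without that mouse. Striatal and amygdala genes were lower for 5 of 9 (median -0.26, -0.16 without PBS mouse 72 and 0.11 without YMP mouse 81).

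**Figure D5:**
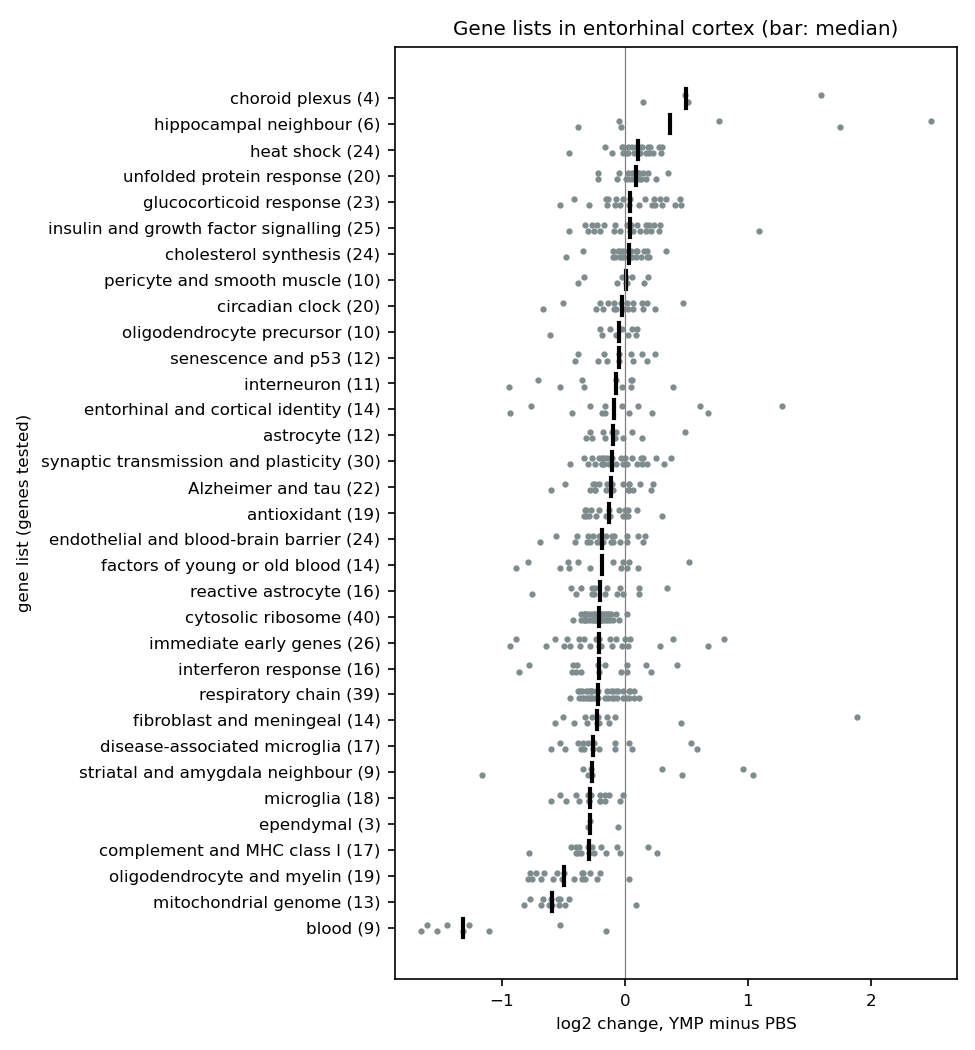
Log2 change (YMP minus PBS) of each gene tested in the 33 lists, with a bar at the median; the number of genes tested is in brackets. Blood, mitochondrial genome and myelin genes have the lowest medians; those of blood and myelin move to -0.57 and 0.18 without PBS mouse 72, and that of the mitochondrial genome to -0.53.

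Neuronal genes gave no common direction. Identity genes of entorhinal and cortical neurons were lower for 8 of 14 (median -0.09). Of the 14, 2 had an unadjusted p under 0.05, both higher, against 2.26% of all genes tested. Fezf2, a transcription factor of deep-layer projection neurons, was at 64.2, 14.6 and 118 CPM in YMP and 17.3 to 35.5 CPM in PBS, so the average was set by YMP mice 73 and 81 (log2 change 1.27, and 0.53 without YMP mouse 81). Lmo3, a transcriptional cofactor, was at 101, 60.1 and 95.2 CPM in YMP and 41.5 to 66.6 CPM in PBS. Reln was at 80.3, 26.2 and 45.5 CPM in YMP and 38.0 to 95.8 CPM in PBS (log2 change -0.18, -0.36 without PBS mouse 72 and -0.11 without YMP mouse 81).

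Interneuron genes were lower for 7 of 11 (median -0.07, -0.15 without PBS mouse 72 and -0.23 without YMP mouse 81). Lamp5, which marks neurogliaform interneurons and is also made by superficial pyramidal cells, was at 79.2, 118 and 75.3 CPM in YMP and at 191, 151, 123 and 126 CPM in PBS, without overlap (log2 change -0.70, SE 0.21). Cck, a neuropeptide, averaged 225 ± 33.5 CPM (SD, n = 3) against 287 ± 34.5 CPM (SD, n = 4). Npy, another peptide, had a log2 change of -0.52. It was -0.84 without YMP mouse 81, -0.27 without YMP mouse 73 and -0.28 with the length trend removed. Lhx6, a factor of interneurons from the medial ganglionic eminence, had a log2 change of 0.40. The YMP mice with the lowest Lamp5, mice 73 and 81, were those with the highest Fezf2 and Fibcd1, and the part of the dissected layers or borders in these values was not tested.

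Genes of synaptic transmission and plasticity were lower for 19 of 30 (median -0.11, -0.06 without PBS mouse 72 and 2.44e-05 without YMP mouse 81). Shank1 was the single member with an unadjusted p under 0.05, a share near the 2.43% of all genes tested that were lower at that p. Immediate early genes, which neurons switch on after activity, were lower for 20 of 26 (median -0.21), and without PBS mouse 72 they were lower for 8 of 26 (median 0.23). Arc, which regulates AMPA receptor traffic, was at 120, 148 and 99.0 CPM in YMP, at 661 CPM in PBS mouse 72 and at 53.1 to 127 CPM in the other PBS mice. Its log2 change was -0.88 with PBS mouse 72 and 0.68 without. Fos and Egr1 turned in the same way, from -0.47 to 0.42 and from -0.49 to 0.23. Bdnf, the neurotrophin, averaged 36.9 ± 13.99 CPM in YMP and 35.6 ± 16.5 CPM in PBS (log2 change 0.04, 0.39 without PBS mouse 72 and -0.09 without YMP mouse 81).

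Most chaperone genes averaged slightly higher. Heat shock genes were higher for 18 of 24, with a median of 0.10 (0.05 without PBS mouse 72 and 0.04 without YMP mouse 81). Unfolded protein response genes were higher for 16 of 20, with a median of 0.09 (0.02 without YMP mouse 81). Hsph1, a cytosolic chaperone of the Hsp110 family, was at 391, 463 and 466 CPM in YMP and at 313, 377, 382 and 363 CPM in PBS, without overlap (log2 change 0.29, SE 0.11). Hspa5, the main chaperone of the endoplasmic reticulum, had a log2 change of 0.35 with overlap (0.24 without PBS mouse 72). Dnajb5, a co-chaperone, lay the other way without overlap (-0.46).

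Metabolic and hormonal lists had medians near that of all genes, apart from glucocorticoid response genes once PBS mouse 72 was left out. Cholesterol synthesis genes were higher for 13 of 24 (median 0.04), with Cyp51, the lanosterol demethylase, at 110, 87.6 and 115 CPM in YMP and 76.7 to 87.0 CPM in PBS. Circadian clock genes were higher for 9 of 20 (median -0.02). Glucocorticoid response genes were higher for 13 of 23 (median 0.04, 0.21 without PBS mouse 72 and 0.0071 without YMP mouse 81). Mt1, a metallothionein, had a log2 change of -0.53 and Errfi1, a feedback inhibitor of growth factor receptors, one of 0.33. Insulin and growth factor genes were higher for 14 of 25 (median 0.04). Igf1 averaged 9.52 ± 1.20 CPM in YMP and 9.49 ± 1.93 CPM in PBS (log2 change 0.02, and 0.16 without PBS mouse 72), and Igfbp3, a binding protein of Igf1, was set by YMP mouse 81 at 69.8 CPM, against 15.1 to 32.1 CPM in the other 6 libraries (log2 change 1.09, and 0.42 without that mouse).

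Genes of the factors that have been linked to young or old blood were read in the tissue itself, which does not report their level in plasma. Of 14 tested, 10 were lower (median -0.19, and -0.10 without PBS mouse 72). Gdf11, a TGF-beta family member, was at 7.62, 7.48 and 9.28 CPM in YMP and at 11.5, 11.6, 10.6 and 11.0 CPM in PBS, a log2 change of -0.45 (SE 0.15) without overlap. Cst3, cystatin C, averaged 1179 ± 82.8 CPM (SD, n = 3) against 1619 ± 288 CPM (SD, n = 4). Timp2, a metalloproteinase inhibitor described in young plasma, was at 864, 661 and 1079 CPM in YMP and at 338 to 760 CPM in PBS, with overlap and a log2 change of 0.52 (SE 0.27), which was 0.31 without PBS mouse 72 and 0.33 without YMP mouse 81. Ccl11, the chemokine eotaxin, had at most 2 counts in any of the 7 libraries and was not tested.

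The Alzheimer and tau list held values in both directions. Of 22 genes, 14 averaged lower (median -0.11), 4 lay below without overlap and 2 above, against 3.05% and 3.66% of all genes tested. Clu, the extracellular chaperone clusterin, was at 993, 1204 and 992 CPM in YMP and at 1260, 1339, 1315 and 1263 CPM in PBS (log2 change -0.28, SE 0.10). Bace1, the beta-secretase, was at 154, 150.4 and 155 CPM in YMP and at 129, 125, 136 and 137 CPM in PBS (0.21, SE 0.078), and App, the amyloid precursor, at 1647, 1603 and 1584 CPM against 1442 to 1536 CPM (0.12, SE 0.083). Mapt, the gene of tau, averaged 399 ± 23.7 CPM in YMP and 432 ± 41.0 CPM in PBS, with overlap. The edgeR adjusted p was 0.91 for Clu, Bace1 and App.

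Antioxidant genes were lower for 13 of 19 (median -0.13), 5 of them at an unadjusted p under 0.05, against 2.43% of all genes tested. Txn1, thioredoxin, was at 69.0, 66.2 and 80.0 CPM in YMP and 81.9 to 95.4 CPM in PBS (-0.33). Slc7a11, the cystine transporter that supplies glutathione synthesis, was at 29.9, 29.3 and 29.8 CPM against 32.36 to 43.3 CPM (-0.32), and Prdx6, a peroxiredoxin, had a log2 change of -0.27. With the length trend removed, Txn1 was at -0.16, Slc7a11 at -0.34 and Prdx6 at -0.31. Senescence and p53 genes were lower for 7 of 12 (median -0.05), and Mdm2, the ligase that degrades p53, lay above in every YMP library (0.18).

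Whether the entorhinal values differed from those of neocortex was tested with motor and visual cortex of the same mice. Visual cortex had no library of PBS mouse 72. The libraries of a mouse entered this test as if independent, and a fit with the mouse as a block is given with the alternatives below. The contrast of the entorhinal YMP-minus-PBS change against the mean of the changes in both neocortical regions gave 0 of 14048 genes called by edgeR (0% of genes tested), with 641 at an unadjusted p under 0.05. DESeq2 also called 0 with 542 at an unadjusted p under 0.05. Within motor and visual cortex alone edgeR called 0 genes each, with 347 of 13246 and 377 of 13551 at an unadjusted p under 0.05.

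The 5 genes with the smallest p for this difference were Zfp202, S100b, Tacr3, Cant1 and Pde11a. For S100b, libraries of the 3 regions scaled together gave 53.3, 62.9 and 61.2 CPM in entorhinal YMP and 72.1 to 91.0 CPM in entorhinal PBS. In motor cortex the YMP libraries had 76.3 to 80.0 CPM and the PBS libraries 81.0 to 83.9 CPM, and in visual cortex 58.4 to 66.4 CPM and 59.7 to 67.6 CPM. The log2 difference was -0.42 (SE 0.10, edgeR adjusted p 1). Zfp202 differed by 1.13 (SE 0.24), and Cant1, a nucleotidase of the Golgi, by 0.30 (SE 0.077), each with an edgeR adjusted p of 1. Tacr3, the neurokinin 3 receptor, and Pde11a, a phosphodiesterase of the ventral hippocampus, were high in entorhinal cortex of YMP mice 73 and 81. Tacr3 was at 14.3 and 15.3 CPM there and 1.08 CPM in YMP mouse 77, and Pde11a at 8.34 and 20.2 CPM and at 1.70 CPM. The log2 change of Tacr3 was 1.88 within entorhinal cortex, and its log2 difference from neocortex was 3.49. In motor cortex Tacr3 was near the floor, at 0 to 0.21 CPM in YMP and 0.75 to 1.54 CPM in PBS.

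Among the lists, 12 of 13 mitochondrial genome genes had a negative log2 difference from neocortex, with a median of -0.46 and 10 at an unadjusted p under 0.05. The medians of their changes were -0.59 in entorhinal, -0.11 in motor and -0.10 in visual cortex. The log2 difference was negative for 39 of 40 ribosomal protein genes (median -0.20) and for all 18 microglial genes (median -0.18), and 5 and 4 of them had an unadjusted p under 0.05. Over all 14048 genes tested, 6710 had a negative log2 difference. An unadjusted p under 0.05 was reached by 641 of the 14048 genes, 258 with a negative and 383 with a positive log2 difference. No gene of these lists was called by edgeR, and YMP mouse 77 decided 1 call: without it, Tacr3 was called at a log2 difference of 3.87 (edgeR adjusted p 0.0441). That difference also includes the levels of Tacr3 near the floor in motor cortex.

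Young plasma was last set against dietary restriction in the same region, where 5 aDR and 3 AL female mice of the same age were sequenced. The difference between the 2 effects gave 0 of 14280 genes called by edgeR (0% of genes tested), with 428 at an unadjusted p under 0.05. Diet alone gave 0 of 14160, with 593. The 5 genes with the smallest p were Cirbp, Rbm3, Ubxn1, Slc2a4 and Fam163a. Cirbp, an RNA-binding protein induced by cold, was at 93.7 to 102 CPM in YMP, 101 to 123 CPM in PBS, 185 to 220 CPM in aDR and 121 to 162 CPM in AL mice. Its log2 changes were -0.22 for plasma and 0.63 for diet, a difference of -0.85 (SE 0.14, edgeR adjusted p 0.411, DESeq2 adjusted p 1.17e-04), and it was the single gene DESeq2 called.

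Rbm3, the second cold-induced RNA-binding protein, had log2 changes of -0.22 for plasma and 0.71 for diet, a difference of -0.94 (SE 0.21, edgeR adjusted p 1). Its plasma change was -0.13 without PBS mouse 72 and -0.09 without YMP mouse 81. Without AL mouse 63, edgeR called Cirbp at an adjusted p of 0.0466. Ubxn1 differed by -0.39, Slc2a4, the insulin-responsive glucose transporter, by -1.34 at 5.64 CPM or less in each library, and Fam163a by 0.74. Mitochondrial genome genes had median changes of -0.59 for plasma and -0.29 for diet, and 0 of the 13 had an unadjusted p under 0.05 for the difference. Plasma and diet were given to mice of different sex in separate experiments, so intervention, sex and experiment cannot be told apart in this difference.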

How the data were processed

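RNA of homogenised tissue was made into full-length cDNA (Smart-Seq2) and Nextera XT libraries without strand information, per the labels' protocols. The authors deposited whole-number read counts per gene in 1 table of 21076 genes and 238 libraries. Trim Galore 0.3.7, STAR 2.5.3a, DESeq2 and the build GRCm38 are named per the submitters' processing notes; the counting program and annotation are not given in the sources used here. Positions and exonic lengths came from GENCODE M21 (GRCm38).

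Libraries were grouped by region, treatment and mouse in the labels. In R 4.3.3, edgeR 4.0.16 was run on the counts after filterByExpr (minimum count 10, minimum total count 15) and TMM scaling, without covariates, with Benjamini-Hochberg adjustment at 0.05. SEs are the log2 change over the square root of F. Log2 CPM for correlations used a prior count of 2. Script steps were tested on simulated data. DESeq2 1.42.0, RLE scaling, no filter, a mean CPM of at least 5, voom with sample weights (limma 3.58.1), all 15 entorhinal libraries and leaving out each mouse were alternatives. The smallest chi-square per degree of freedom between replicates was 2.80, so no library was counted as a duplicate. Xist was at most 0.843 CPM and Ddx3y at least 56.3 CPM, as labelled male.

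Mouse numbers mark the same animal in all its regions and are shared by no YMP and PBS mouse. Deviations from group means correlated at 0.106 on average in 19 same-mouse pairs of regions and at -0.0176 in 114 pairs of different mice.

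The comparison and the 33 gene lists (595 of 600 entries with a row) were chosen with earlier results of these data known. Genes named are the 12 per direction with the smallest p at a mean of 5 CPM or more and without overlap, up to 4 per list with the smallest p, 17 fixed genes and 5 per difference test. Identity and sex markers, whole-list members without overlap, Rpl3, Col3a1 and the other mitochondrial genes were named beside these after their values were seen. Some results are not reported here.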

Additional observations from a re-analysis of the deposited data

Results flagged for a closer look

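Within the 4 PBS mice, 11 of 139 values examined held 1 mouse far from the others by Dixon's test, where chance gives about 1 in 20 (6.95), and 6 of the 11 were PBS mouse 72. Its Arc was 661 CPM (53.1 to 127 in the other 3), its Egr1 613 CPM (117 to 201), its Mbp 2249 CPM (519 to 648), its Ly6c1 43.7 CPM (28.6 to 30.5) and its mt-Nd4l 4.79 CPM (2.53 to 2.70). Its myelin list summed to 5756 CPM (1609 to 1948).

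PBS mouse 84, the deepest library, was low in Ptgds at 2292 CPM (3535 to 3716 in the other 3), in Mapt at 371 CPM (444 to 458) and in the fibroblast and meningeal list at 2775 CPM (4090 to 4277). PBS mouse 76, the shallowest library, was low in Zfp202 at 2.53 CPM (4.20 to 4.49) and in Cant1 at 49.8 CPM (54.7 to 55.2). Groups of 3 mice, YMP among them, were not examined in this way.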

How the results depend on the processing

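The count of genes called in entorhinal cortex was 0 under each edgeR and voom alternative and 5 with DESeq2. The number at an unadjusted p under 0.05 (642) was 1047 with all 15 libraries in 1 fit, 1132 with voom weights, and 413 (without PBS mouse 76) to 971 (without YMP mouse 77, 968 without PBS mouse 84). With PBS mouse 72 and YMP mouse 81 both left out it was 550, and 578 with the length trend removed, both chosen after seeing the data. For the difference from neocortex, leaving out a mouse gave 0 to 1 called genes and 326 (without YMP mouse 81) to 1297 (without PBS mouse 84) at an unadjusted p under 0.05, 403 without PBS mouse 76 and 1157 without YMP mouse 77, against 641. With the mouse as a replicate block 0 were called and 829 had an unadjusted p under 0.05. For plasma minus diet the count was 1 with DESeq2 and 0 to 1 when a mouse was left out, and those at an unadjusted p under 0.05 were 318 to 619. DESeq2 called mt-Nd1, mt-Nd5, mt-Nd6, mt-Cytb and Camk2n2, which edgeR did not.

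Some small or library-dependent log2 changes turned sign. When each mouse was left out in turn, Mbp ran from -0.74 to 0.28, Arc from -1.22 to 0.68, Fos from -0.78 to 0.42, Egr1 from -0.76 to 0.23, Vcam1 from -0.038 to 0.24, Reln from -0.67 to 0.18, Bdnf from -0.18 to 0.39, Igf1 from -0.080 to 0.16 and mt-Nd4l from -0.14 to 0.36. With voom weights Mbp was 0.19, Arc 0.41, Fos 0.21 and Vcam1 -0.025. With PBS 72 and YMP 81 both left out Mbp was 0.36, Arc 0.81, Fos 0.44, Egr1 0.36, Vcam1 -0.0050 and Rbm3 0.0060. With the length trend removed Igf1 was -0.0032. The cause was not tested. The other named genes kept their direction in the alternatives run. The 5 residual degrees of freedom and totals down to 2.81 M limit what small differences in low genes can show.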
